A study of Mus musculus with 8 samples.

Results

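The genes described here were Bag3 and 9 heat shock chaperones, Hspa8, Hspa1a, Hspa1b, Hsph1, Dnajb1, Hsp90aa1, Hspb1, Hspb8, and Cryab. They were taken by symbol from a table of 24354 mouse genes, and all 10 had a row. This set was selected on measured values of the same 8 libraries, so the levels and fold differences of these 10 genes are given as a description, without a test. RNA sequencing covered 4 groups of 2 libraries. The ESCs were the wild-type E14 line, grown with serum and LIF on C3H mouse embryonic fibroblasts that had been inactivated with mitomycin C. The NSCs carried the OG2 and ROSA26 transgenes, each in the heterozygous state, so they held an Oct4-GFP reporter and lacZ, and were grown on gelatin with EGF and FGF2. The EPSCs were wild type and derived from C57BL/6 8-cell embryos, and their label was read as line 1 at passage 15. They were kept on feeders in LCDM medium, which holds human LIF, CHIR99021, dimethindene maleate, and minocycline. The hybrid cells, with a label read as line 2-2 at passage 10, were obtained by fusing EPSCs with NSCs in polyethylene glycol. Oct4-GFP-positive colonies were picked and kept in the same LCDM medium on feeders. The study describes the hybrid cells as near-tetraploid from their karyotype. The 2 libraries of a group share a label apart from the replicate number and were read as 1 line. On that reading, the spread between them is that of repeated samples and not of independent derivations or fusions. Whether the EPSC line sequenced was the one fused is not stated, and parent below means the cell type. The labels name no heat or other stress treatment.

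Heat shock proteins hold or refold proteins that have lost their shape. Members of the HSP70 family bind unfolded stretches in a cycle of ATP hydrolysis that J-domain proteins (HSP40) start and nucleotide exchange factors end, and HSP90 takes over many of their clients. Small heat shock proteins bind unfolding proteins without ATP. BAG3 joins both systems, because its BAG domain releases nucleotide from HSP70 and other motifs of it bind the small proteins HSPB8 and HSPB6, and this complex delivers clients to autophagy. The inducible genes of the group are classical targets of heat shock factor HSF1, which binds repeated 5-base units called heat shock elements. Pluripotent stem cells are known for a high constitutive level of several of these chaperones.

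FPKM (fragments per kilobase of transcript, relative to the mapped fragments of the library) are per length, so levels of different genes can be set side by side. FPKM summed to 415240 and 415412 in the NSC libraries and to between 600674 and 653796 in the other 6, so the deposited values have no common sum. The steps between low FPKM values gave a depth of 22.0 to 32.6 in units of 1000000 fragments, assuming fragments of 200 bases. Between 72.4% and 82.0% of the low values used lay within 0.1 of a whole fragment. Pluripotency and neural stem markers fitted the labels, whereas 8 neuron markers separated the groups little. The summed FPKM of the neuron markers was 234 and 253 in NSCs and between 156 and 220 in the other libraries. The summed FPKM of 10 pluripotency markers lay between 4885 and 5791 in ESCs, EPSCs, and hybrid cells and at 2.40 and 2.99 in NSCs, and that of 11 neural stem markers at 4028 and 4080 in NSCs and between 17.1 and 30.2 in the other libraries. In addition, the summed FPKM of 18 fibroblast markers differed among the groups on feeders, at 20.8 and 22.3 in ESCs, 114 and 116 in EPSCs, and 321 and 425 in hybrid cells, against 35.9 and 37.0 in NSCs.

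RefSeq promoters of GRCm38.p6 were available for 7 of the 10 genes in 9 entries, each with 250 bases before and 50 bases after the annotated start. They were searched for the pair of facing heat shock units, a dyad with the letters GAANNTTC or TTCNNGAA, which reads the same on both strands. In the 250 bases before the start, 12.84% of 32851 promoters held a dyad. The same window held one in 4 of the 7 genes, namely Hspa1a, Hspa1b, Hspb1, and Hsph1. The sequences of Bag3, Hspb1, Hspa1a, and Hspa1b are printed because Bag3 differed most between hybrid cells and EPSCs, Hspb1 differed most between these groups and NSCs, and Hspa1a and Hspa1b are near copies of each other. They run 5′ to 3′ on the strand of the gene and end at the base before the start, and capitals mark a dyad. The Bag3 window is chr7:128523333-128523582 on the plus strand, that of Hspb1 is chr5:135887669-135887918 on the plus strand, and those of Hspa1a and Hspa1b are chr17:34972157-34972406 and chr17:34959239-34959488 on the minus strand.
Bag3: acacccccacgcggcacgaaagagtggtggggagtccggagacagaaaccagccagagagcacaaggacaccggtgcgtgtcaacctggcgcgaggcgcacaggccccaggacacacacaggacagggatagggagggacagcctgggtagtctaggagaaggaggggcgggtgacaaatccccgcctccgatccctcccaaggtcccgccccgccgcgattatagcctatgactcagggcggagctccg
Hspb1: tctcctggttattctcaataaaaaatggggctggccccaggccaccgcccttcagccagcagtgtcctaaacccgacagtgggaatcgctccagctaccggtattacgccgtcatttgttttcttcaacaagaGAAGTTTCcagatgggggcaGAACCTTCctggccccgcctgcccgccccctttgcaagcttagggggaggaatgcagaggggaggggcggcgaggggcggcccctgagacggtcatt
Hspa1a: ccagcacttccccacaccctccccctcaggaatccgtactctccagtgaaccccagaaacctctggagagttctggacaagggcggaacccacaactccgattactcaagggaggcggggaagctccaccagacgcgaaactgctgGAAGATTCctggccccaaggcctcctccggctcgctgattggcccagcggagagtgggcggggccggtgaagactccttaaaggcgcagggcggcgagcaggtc
Hspa1b: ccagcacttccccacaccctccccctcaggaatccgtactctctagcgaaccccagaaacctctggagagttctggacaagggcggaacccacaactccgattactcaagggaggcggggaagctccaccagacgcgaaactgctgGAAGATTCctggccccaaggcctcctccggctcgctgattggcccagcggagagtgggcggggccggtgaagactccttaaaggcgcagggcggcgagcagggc
The Hspb1 window held 2 dyads, GAAGTTTC from 117 to 110 bases and GAACCTTC from 97 to 90 bases before the start, and 1.46% of all promoters held 2 or more. The windows of Hspa1a and Hspa1b each held GAAGATTC from 104 to 97 bases before the start. They differed at 3 of 250 positions, with the substitutions C44T, T47C, and T249G from Hspa1a to Hspa1b, counted from the 5′ end of the window. No dyad stood in the Bag3 window, and its entry held 1 after the start, GAAGTTTC at bases 43 to 50. Hspb8 likewise held GAAGTTTC at bases 3 to 10 after its start and none before it. Hsph1 has 2 annotated starts, and its entries held TTCTCGAA before and TTCTGGAA and GAAAGTTC after each of them. The last 2 overlap and form 3 alternating units in a row, an arrangement found in 0.60% of all promoters of 300 bases and in no other of the 7 genes. Neither entry of Dnajb1 held a dyad. With the 50 bases after the start included, 6 of the 7 genes and 15.06% of all promoters held one. A match of letters is a description and not a binding site.

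**Figure D1:**
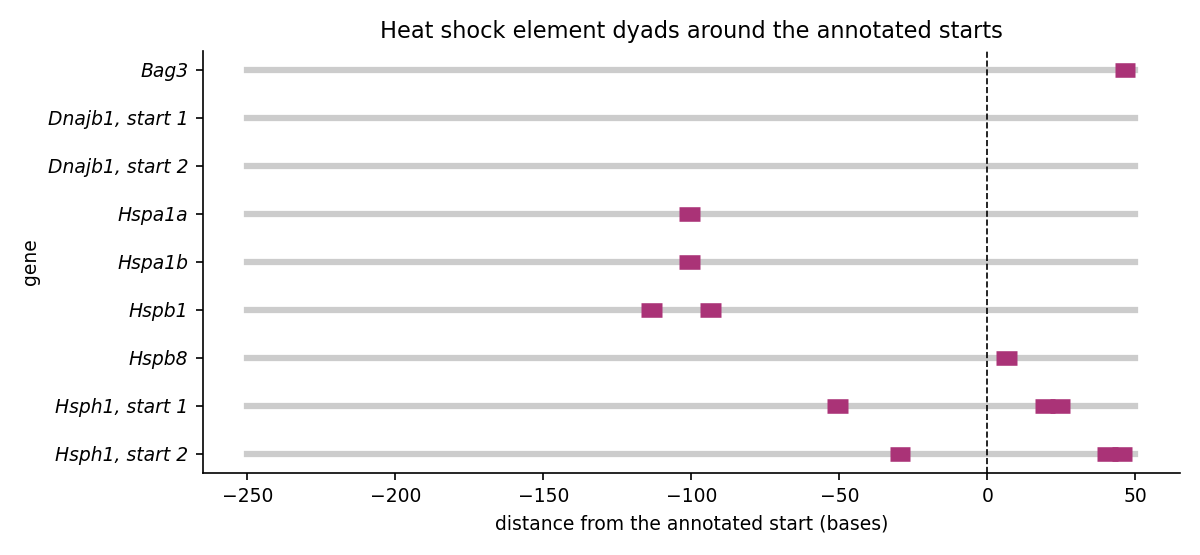
Positions of heat shock element dyads (bars) in the 9 RefSeq promoter entries of 7 genes, as the distance in bases from the annotated start (dashed line). Hspa1a, Hspa1b, Hspb1, and Hsph1 held a dyad before the start, Bag3 and Hspb8 only after it, and Dnajb1 none.

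The first comparison of levels concerned the HSP70 machine. Hspa8 encodes the constitutive cytosolic HSP70 (HSC70) and lies on chromosome 9 of GRCm38.p6. It was the most abundant of the 10 genes in every group. Its FPKM were 1350 and 1306 in ESCs, 813 and 799 in NSCs, 2836 and 2540 in EPSCs, and 2865 and 2681 in hybrid cells. Hybrid cells and EPSCs overlapped at the top, ESCs were in between, and NSCs were lowest. In these bulk samples, fewer cells with a transcript and less transcript per cell cannot be told apart. The mean of hybrid cells was 1.03-fold that of EPSCs and 3.44-fold that of NSCs (2.24-fold with each library scaled to a sum of 1000000), and the mean of EPSCs was 2.02-fold that of ESCs. The table held 25 genes with a higher mean than Hspa8 in hybrid cells, 29 in EPSCs, 49 in NSCs, and 79 in ESCs.

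Hspa1a and Hspa1b encode the inducible HSP70 and lie 10120 bases apart on chromosome 17. They were at the low end of the set. Hspa1a was at 0.980 and 1.02 FPKM in ESCs, 0.337 and 0.307 in NSCs, 1.08 and 1.09 in EPSCs, and 2.195 and 0.999 in hybrid cells. The 2 hybrid cell libraries differed 2.198-fold, the widest gap between libraries of a group among the 10 genes, and 1 of them lay below both EPSC libraries. Hspa1b was at 3.44 and 2.69 FPKM in ESCs, 0.618 and 0.625 in NSCs, 3.28 and 3.35 in EPSCs, and 2.79 and 2.09 in hybrid cells. Both hybrid cell libraries lay below both EPSC libraries, ESCs and EPSCs overlapped, and NSCs were again lowest. At the derived depths, these values correspond to about 24 to 145 fragments for Hspa1a and about 46 to 292 for Hspa1b. The inducible genes together amounted to 0.115 to 0.328% of Hspa8 in every library, highest in ESCs. Of the windows of 100 bases in the longest coding transcript, 48.64% of Hspa1a and 49.93% of Hspa1b also occurred in transcripts of other genes, chiefly of each other, so the division of reads between them is uncertain.

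Hsph1 encodes HSP110, which exchanges the nucleotide of HSP70. It was at 37.9 and 37.4 FPKM in ESCs, 37.6 and 40.0 in NSCs, 94.0 and 92.8 in EPSCs, and 71.7 and 57.7 in hybrid cells. As deposited, EPSCs stood above all other libraries, hybrid cells came next, and ESCs and NSCs overlapped. After scaling to a common sum, hybrid cells and NSCs overlapped, with means 1.08-fold apart instead of 1.67-fold. As deposited, the mean of EPSCs was 1.44-fold that of hybrid cells, 2.41-fold that of NSCs, and 2.48-fold that of ESCs. After scaling, it was 1.57-fold that of NSCs. Dnajb1 encodes the J-domain partner that delivers clients to HSP70. Its FPKM were 41.2 and 39.9 in ESCs, 21.3 and 21.5 in NSCs, 27.5 and 27.8 in EPSCs, and 25.4 and 22.8 in hybrid cells. It varied least of the 10 genes, with 1.89-fold between the highest and the lowest group mean, and was highest in ESCs. Both hybrid cells and EPSCs were above NSCs as deposited, by 0.16 and 0.35 on the scale of log2(FPKM + 1), and below them, at -0.45 and -0.24, when each library was scaled to a sum of 1000000. Relative to Hspa8, Dnajb1 was at 3.05% in both ESC libraries, 2.62 and 2.69% in NSCs, 0.969 and 1.10% in EPSCs, and 0.885 and 0.849% in hybrid cells. This ratio within a library does not depend on the scaling and set both LCDM-cultured groups apart from ESCs and NSCs.

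Hsp90aa1, the stress-responsive cytosolic HSP90, followed Hspa8 in level in every group. It was at 957 and 909 FPKM in ESCs, 212 and 226 in NSCs, 1941 and 1793 in EPSCs, and 2219 and 2013 in hybrid cells. The 4 groups did not overlap, and both hybrid cell libraries were above all others. The mean of hybrid cells was 1.13-fold that of EPSCs and 9.65-fold that of NSCs, and the mean of EPSCs was 2.00-fold that of ESCs. After scaling to a common sum, the mean of hybrid cells was 6.27-fold that of NSCs. The constitutive Hsp90ab1, which is not among the 10 genes, served as the reference for a ratio. Hsp90aa1 over Hsp90ab1 was 0.376 and 0.350 in ESCs, 0.199 and 0.213 in NSCs, 0.676 and 0.642 in EPSCs, and 0.832 and 0.821 in hybrid cells. Thus, the stress-responsive form made up a larger part of the pair in EPSCs than in ESCs and a still larger one in hybrid cells. Windows shared with transcripts of other genes made up 62.83% of Hspa8, 47.55% of Hsp90aa1, and 42.72% of Hspb1, so reads from those stretches cannot be assigned to 1 gene, whereas Bag3, Hspb8, Hsph1, Dnajb1, and Cryab shared none.

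**Figure D2:**
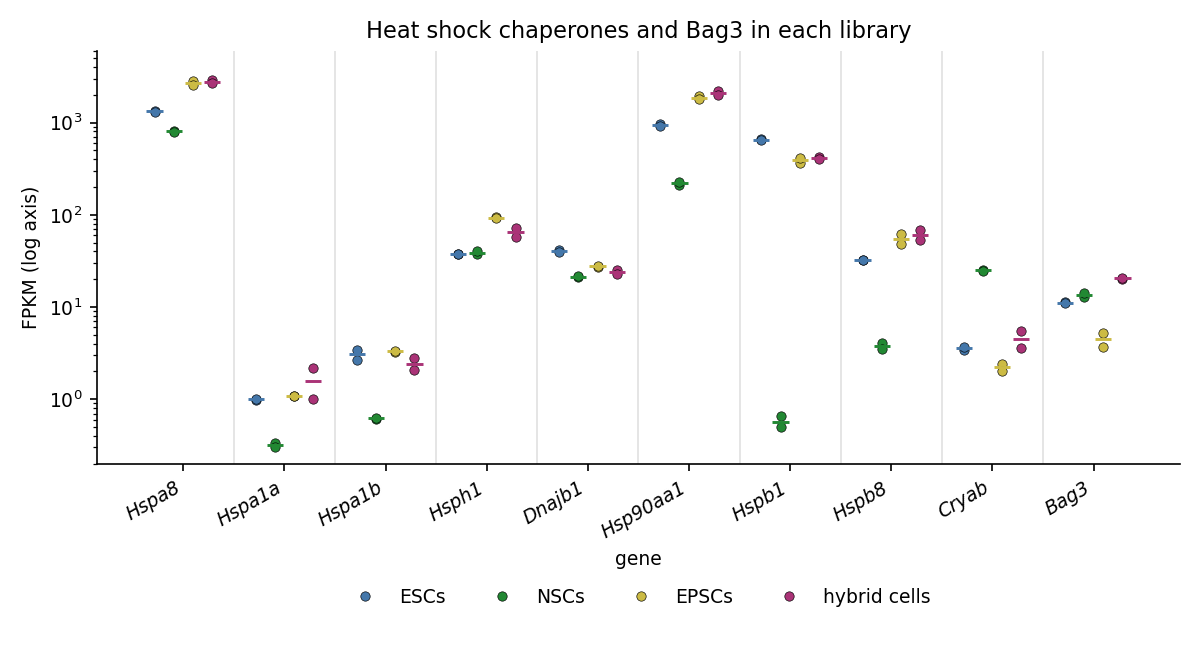
FPKM (log axis) of the 10 genes in each of the 8 libraries, with points for libraries and short lines for the mean of 2 libraries. Hspa8 reached 2865 and Hsp90aa1 2219 in hybrid cells, Hspb1 was near 0.5 in NSCs against 368 to 657 elsewhere, Cryab was highest in NSCs, and Bag3 was, as deposited, lowest in EPSCs and highest in hybrid cells.

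The small heat shock proteins had the most divergent patterns. Hspb1 encodes HSP27 (HSP25 in mouse), which forms large oligomers and protects actin filaments. Its FPKM were 657 and 645 in ESCs, 0.496 and 0.652 in NSCs, 368 and 408 in EPSCs, and 426 and 403 in hybrid cells. Only 222 genes in EPSCs and 212 in hybrid cells had a higher mean, whereas 11846 did in NSCs, where the values of Hspb1 rested on about 10 and 14 fragments. Hybrid cells and EPSCs overlapped, and ESCs were 1.68-fold above EPSCs. The mean of hybrid cells was 722-fold and that of EPSCs 676-fold that of NSCs. After scaling to a common sum, these were 469-fold and 442-fold.

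Hspb8 encodes HSP22, the small chaperone that BAG3 binds. It was at 32.2 and 32.7 FPKM in ESCs, 4.09 and 3.53 in NSCs, 48.2 and 61.7 in EPSCs, and 53.3 and 67.7 in hybrid cells. Hybrid cells and EPSCs overlapped, and NSCs were lowest. The means were 15.9-fold higher in hybrid cells and 14.4-fold higher in EPSCs than in NSCs. After scaling to a common sum, these were 10.3-fold and 9.44-fold. Cryab encodes αB-crystallin, a small heat shock protein of lens, muscle, and glia. It ran the other way, at 3.41 and 3.72 FPKM in ESCs, 25.2 and 24.8 in NSCs, 2.41 and 2.05 in EPSCs, and 5.48 and 3.59 in hybrid cells. NSCs were 11.2-fold above EPSCs and 5.51-fold above hybrid cells (17.2-fold and 8.50-fold with each library scaled to a sum of 1000000), and both hybrid cell libraries were above both EPSC libraries, with means 2.04-fold apart. Hybrid cells overlapped ESCs. The ratio of Hspb1 to Cryab was 193 and 174 in ESCs, 0.0196 and 0.0263 in NSCs, 153 and 199 in EPSCs, and 77.6 and 112 in hybrid cells. Of Hspb1 and Cryab, the leading transcript was therefore Cryab in NSCs and Hspb1 in the 3 pluripotent groups.

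Bag3 encodes the co-chaperone that couples HSP70 to the small heat shock proteins, and its gene lies at chr7:128523583-128546981 of GRCm38.p6. It was at 11.2 and 11.2 FPKM in ESCs, 13.0 and 14.2 in NSCs, 3.73 and 5.29 in EPSCs, and 20.2 and 20.5 in hybrid cells. As deposited, the groups did not overlap, with hybrid cells highest, then NSCs, ESCs, and EPSCs. The mean of hybrid cells was 4.52-fold that of EPSCs, a difference of 1.97 ± 0.29 on the scale of log2(FPKM + 1) (SD of the difference of 2 and 2 libraries). The means of NSCs and ESCs were 3.01-fold and 2.48-fold that of EPSCs (4.58-fold and 2.58-fold after scaling to a common sum). In hybrid cells, the mean was 1.50-fold that of NSCs, a log2 difference of 0.56 as deposited and 0.67 after quantile normalization that turned to -0.03 when each library was scaled to a sum of 1000000. Hspb8 did not follow this pattern. Its ratio to Bag3 was 2.87 and 2.92 in ESCs, 0.316 and 0.250 in NSCs, 12.9 and 11.7 in EPSCs, and 2.64 and 3.30 in hybrid cells. Hybrid cells overlapped ESCs, EPSCs had the highest ratio, and NSCs were the only group with more Bag3 than Hspb8.

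Fibroblast markers moved with Bag3 between EPSCs and hybrid cells. All 18 markers were higher in both hybrid cell libraries than in both EPSC libraries. The share of all genes with such an order was not computed, and by limma, a different criterion, 22.5% were higher. The list includes Postn, which the study treats as an EPSC-specific gene. Their sum did not follow Bag3 elsewhere, as ESCs and NSCs had 2.48-fold and 3.01-fold the Bag3 of EPSCs with lower marker sums. Within hybrid cells, the marker sum was 425 and 321, while Bag3 was 20.2 and 20.5. The part of fibroblast RNA in the level of Bag3 was not tested. The summed FPKM of 15 immediate early genes, which respond to handling within minutes, was 504 and 525 in ESCs, 880 and 863 in NSCs, 409 and 426 in EPSCs, and 397 and 374 in hybrid cells. This sum was lowest in hybrid cells. By limma, 4 of its 15 genes were called higher and 5 lower than in EPSCs, against 22.5% higher and 21.9% lower of all genes tested. Ier2, the most abundant of them in both groups, was at 136 against 165 FPKM (limma, adjusted p = 0.0089), while Jun was at 22.4 against 13.0 FPKM (limma, adjusted p = 0.0072). Fosb had the largest log2 difference, at 11.6 against 6.09 FPKM (limma, adjusted p = 0.049). Its hybrid cell libraries were at 15.3 and 7.86 FPKM.

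**Figure D3:**
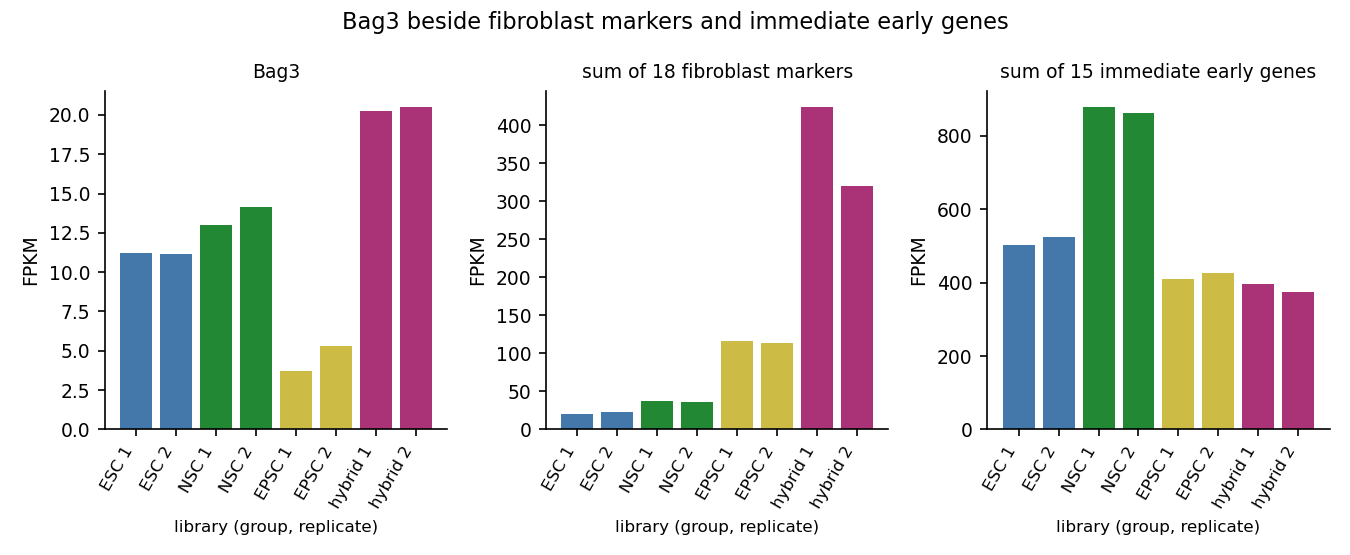
FPKM of Bag3, the sum of 18 fibroblast markers, and the sum of 15 immediate early genes, with 1 bar per library and groups by colour. Bag3 was 20.2 and 20.5 in hybrid cells and 3.73 and 5.29 in EPSCs, the fibroblast sum was 425 and 321 against 116 and 114, and the immediate early sum was 397 and 374 against 409 and 426.

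The genes with the pattern most like that of Bag3 were ranked by Pearson's r of log2(FPKM + 1) over the 8 libraries, among 7662 genes with a group mean of at least 3 FPKM and a range of group means over 2-fold. The first 5 were Il11ra1, a subunit of the interleukin-11 receptor (r = 0.959), Pla2g16, a phospholipase (r = 0.944), H2-Q4, a class I histocompatibility gene (r = 0.926), Rerg, a small GTPase (r = 0.902), and the Y-linked helicase gene Ddx3y (r = 0.900). All of them had lower values in both EPSC libraries than in any other library. Il11ra1, for example, was at 1.83 and 2.24 FPKM in EPSCs and at 4.88 and 4.84 in hybrid cells. Of the other 9 genes of the set, 7 were ranked, since Hspa1a did not reach 3 FPKM in any group and Dnajb1 ranged less than 2-fold. Among these 7, Cryab was nearest to Bag3 with r = 0.434 at rank 496, and Hsph1 was farthest with r = -0.522 at rank 7365. These coefficients share the 8 libraries and are a description.

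The position of hybrid cells relative to both parental cell types was examined next. Both hybrid cell libraries were above all 4 EPSC and NSC libraries for 2 of the 10 genes, Bag3 and Hsp90aa1. This was the case for 18.7% of the 13239 genes with a mean of at least 1 FPKM in a group. Hspa8, Hspb1, and Hspb8 were at the level of the EPSC parent, at positions of 1.03, 1.01, and 1.04 on a log2 scale where the mean of NSCs is 0 and that of EPSCs is 1. Hspa1a was at 1.42, with its 2 libraries on either side of the EPSC values, and its mean of 1.60 FPKM was 2.27-fold the midpoint. Hspa1b and Cryab lay at 0.76 and 0.75, and Hsph1 and Dnajb1 near the middle at 0.57 and 0.45. Bag3 was at -0.39, beyond the NSC parent. Its mean was 2.25-fold the midpoint of the parental means, 9.04 FPKM, whereas that of Cryab was 0.333-fold its midpoint of 13.6 FPKM. The positions of Bag3 and Dnajb1 changed when each library was scaled to a sum of 1000000. Bag3 was then at 0.02, with hybrid cells at 31.4 and 32.3 within the NSC values of 31.2 and 34.1, and was no longer above all parental libraries. Dnajb1 was at 1.85, with both hybrid cell libraries below all parental libraries, and Hsph1 moved to 0.17. Hsp90aa1 remained above all parental libraries, which held for 13.6% of genes after this scaling.

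The methods of the study set a rule for differential expression by a fold change over 3 and an average level over 3 FPKM, which was read here as the mean of the higher group. Between hybrid cells and EPSCs, 1 of 9 genes that reached this level passed, namely Bag3, with a background of 2.18% of all genes at that level. Between hybrid cells and NSCs, 5 of 8 passed, with Hspa8, Hspb1, Hspb8, and Hsp90aa1 higher and Cryab lower in hybrid cells, and the background was 34.6%. Between EPSCs and NSCs, 7 of 9 passed, with Hspa1b added to the 4 higher genes and Bag3 to Cryab on the lower side, and the background was 34.4%. Bag3 was just inside in that comparison, at 3.01-fold, and fell to 2.88-fold without the second NSC library and to 2.56-fold without the first EPSC library, so that 6 genes passed in either case. After scaling to a common sum, it was at 4.58-fold. Hspa1b passed there only under that reading of the level, as its mean was 3.31 FPKM in EPSCs and 0.621 in NSCs, and with the mean of both groups required to exceed 3 FPKM, 6 of 8 passed (background 31.0%). With the libraries scaled, Hspa8 no longer passed against NSCs, at 2.24-fold in hybrid cells and 2.18-fold in EPSCs, which left 4 of 9 genes (background 41.0%) and 6 of 9 (background 40.3%). The ratios of hybrid cells to NSCs were then 6.27 for Hsp90aa1, 10.3 for Hspb8, and 469 for Hspb1. Between EPSCs and ESCs, 0 of 9 passed against a background of 6.34%. Because the values of these contrasts chose the genes, nothing is read from the shares. The 4 comparisons also share groups, so they are not independent. Bag3 came within reach of the rule between EPSCs and ESCs, where it was at 2.48-fold and passed without the second EPSC library. The results text of the study names 2 in place of 3 for both thresholds. The gene counts given there lie nearer to those found here at 3 than at 2. At 3, 211 genes passed for hybrid cells against EPSCs, 3844 for hybrid cells against NSCs, and 625 for EPSCs against ESCs. At 2, these counts were 759, 6355, and 1722. With both at 2, 4 of 9 genes passed between EPSCs and ESCs (Bag3, Hspa8, Hsph1, and Hsp90aa1, background 16.2%), 2 of 9 between hybrid cells and EPSCs (Bag3 and Cryab, background 7.24%), 6 of 9 between hybrid cells and NSCs (background 53.9%), and 8 of 9 between EPSCs and NSCs (background 53.2%). As a share of the library sum of FPKM, the 10 genes took 0.501 and 0.498% in ESCs, 0.272% in both NSC libraries, 0.815 and 0.797% in EPSCs, and 0.885 and 0.830% in hybrid cells.

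**Figure D4:**
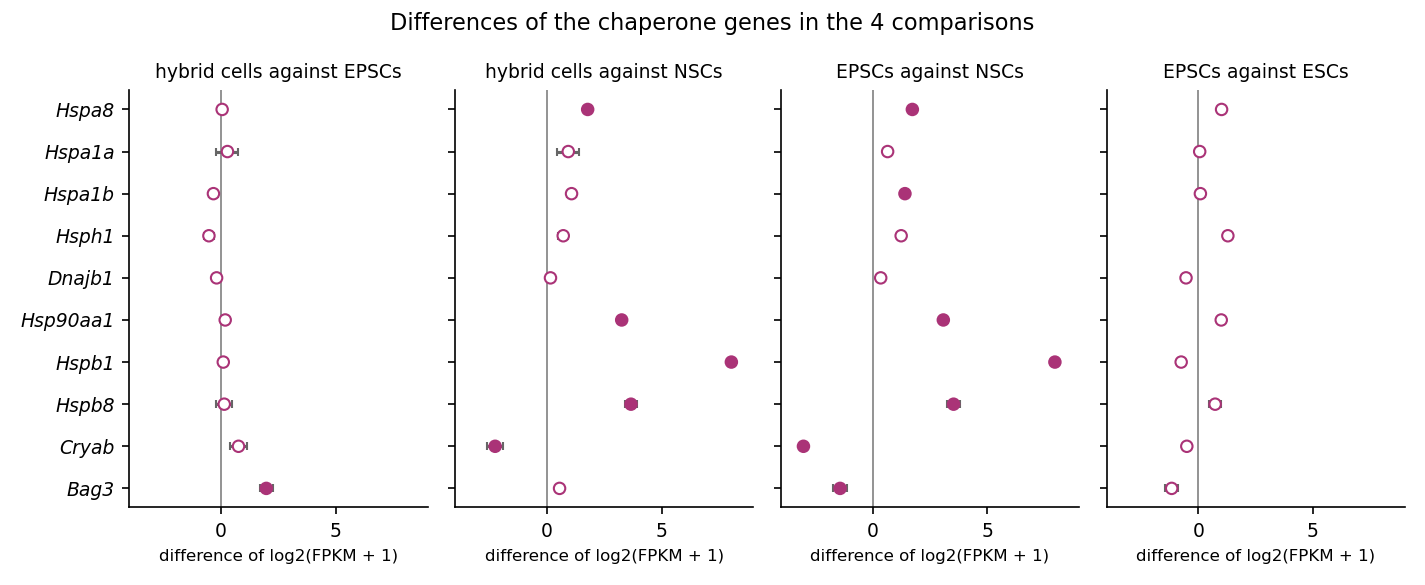
Difference of log2(FPKM + 1) of the 10 genes in the 4 comparisons (first group minus second), with bars for the SD of the difference of 2 and 2 libraries and filled points for genes that pass the rule of the study. Against EPSCs, Bag3 stands at 1.97 in hybrid cells and Cryab at 0.76, and Hspb1 stands at 8.04 against NSCs.

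The rest of the chaperone network was tested with limma, without the 10 genes. The network held 117 genes in 10 lists, of which 103 passed the filter of a mean of at least 1 FPKM in a group. Genes were called at a Benjamini-Hochberg adjusted p under 0.05 over all 13239 genes tested. For hybrid cells against EPSCs, 24 network genes (23.3%) were higher, 23 (22.33%) were lower, and 56 were not called, against 22.5% higher and 21.9% lower of all genes. The median log2 difference was -0.01, and that of all genes was 0.00. Thus, the shares and the median of the network were close to those of all genes in the comparison in which Bag3 differed most. A fit of these 2 groups alone called 31 network genes instead of 47, and 3388 of all genes instead of 5881.

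Between hybrid cells and NSCs, 63 network genes were higher, 26 were lower, and 14 were not called. The background was 44.5% higher and 42.0% lower, and the shares of the network were 61.17% and 25.24%. Between EPSCs and NSCs, the counts were also 63, 26, and 14, with a background of 45.2% higher and 41.0% lower. The median log2 differences of 0.48 and 0.53 compare with 0.06 and 0.08 for all genes. Scaling each library to a sum of 1000000 moved the median of all genes to -0.50 and -0.48 and turned the network medians to -0.12 and -0.03, still above all genes. The counts were then 40 higher and 49 lower for hybrid cells, against 30.2% higher and 57.3% lower of all genes, and 41 and 46 for EPSCs, against 30.4% and 56.6%. Quantile normalization gave 56 and 36, and 52 and 36, against 5821 and 5472, and 5918 and 5403, of all 13239 genes. For EPSCs against ESCs, 49 network genes were higher and 22 were lower, or 47.57% and 21.36%, against a background of 33.7% and 27.3%. The median was 0.19 against 0.04 for all genes. After quantile normalization, 42 were higher and 29 were lower, against 4051 and 3868 of all 13239 genes.

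Chaperonins, the ring complexes of the cytosol (CCT) and mitochondria (HSP60 with HSP10), were the list with the most uniform direction against NSCs. All 10 tested members were higher in hybrid cells and in EPSCs than in NSCs, also under both other scalings. Of all genes, 44.5% and 45.2% were higher as deposited and 30.2% and 30.4% after scaling to a common sum. After quantile normalization, 5821 and 5918 of all 13239 genes were higher. Cct4 averaged 505 ± 44.4 FPKM in hybrid cells and 135 ± 4.80 FPKM in NSCs (SD of 2 libraries here and below), a log2 difference of 1.89 (limma, adjusted p = 1.3e-07). Hspe1, the HSP10 lid of the mitochondrial ring, was at 710 ± 17.9 and 184 ± 0.829 (log2 difference 1.94, limma, adjusted p = 5.7e-08). As deposited, Cct8 was also over 3-fold higher in hybrid cells than in NSCs, at 464 and 147 FPKM. In EPSCs compared with ESCs, 9 of 10 were higher as deposited and with scaling to a common sum, but 6 were higher and 1 was lower after quantile normalization. Of all genes, 33.7% were higher and 27.3% were lower as deposited. Scaling to a common sum gave 4102 and 4134 of all 14064 genes, and quantile normalization 4051 and 3868 of 13239. Cct4 had a log2 difference of 1.04 (limma, adjusted p = 2.8e-05) and Hspd1, the HSP60 itself, one of 0.73 (limma, adjusted p = 0.00043). Between hybrid cells and EPSCs, limma called 3 lower and 0 higher (1 higher at an unadjusted p under 0.05), with Cct2 at 444 against 547 FPKM and Tcp1 at 350 against 416. Of all genes, 21.9% were lower and 22.5% were higher. Scaling to a common sum called 1 chaperonin higher and 3 lower, against 2890 and 2934 of all 14064 genes.

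Compared with NSCs, hybrid cells had 15 of 21 tested HSP90 partners higher and 3 lower (71.43% and 14.29%, against 44.5% and 42.0% of all genes), and EPSCs had 16 and 2 (76.19% and 9.52%, against 45.2% and 41.0%). After scaling to a common sum, the counts were 12 and 7, and 12 and 8, against 30.2% higher and 57.3% lower of all genes for hybrid cells and 30.4% and 56.6% for EPSCs. Ahsa1, the activator of the HSP90 ATPase, rose from 98.6 ± 0.599 FPKM in NSCs to 307 ± 12.0 FPKM in the hybrid cells (log2 difference 1.63, limma, adjusted p = 1.9e-07). The immunophilins Fkbp5 and Ppid rose as well, to 51.4 from 16.9 FPKM and to 161 from 49.6 FPKM. In EPSCs, the co-chaperone p23 (Ptges3) was at 401 FPKM against 128 in NSCs. Against EPSCs, 6 were higher and 3 were lower in hybrid cells (background 22.5% and 21.9%). Ppid (161 against 216 FPKM) and the phosphatase Ppp5c (49.9 against 69.0) were among the lower ones. Between EPSCs and ESCs, 11 were higher and 4 were lower (background 33.7% and 27.3%). Ppid had the largest increase in the list, with a log2 difference of 0.97 (limma, adjusted p = 0.00041), and the myosin chaperone Unc45a was lower, at 8.13 against 16.4 FPKM.

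The next list held BAG proteins other than Bag3, nucleotide exchange factors outside the HSP110 family, and St13 (HIP), which stabilizes the ADP-bound state of HSP70. For hybrid cells against EPSCs, limma called 0 of 10 higher (also 0 at an unadjusted p under 0.05) and 6 lower, against 22.5% higher and 21.9% lower of all genes. Their median was -0.19, whereas scaling to a common sum or quantile normalization left 4 lower and 0 higher. Of all genes, scaling to a common sum called 2934 of 14064 lower and 2890 higher. Quantile normalization called 3019 of 13239 lower and 2797 higher. Among the HSP110 relatives, which also exchange nucleotide and are counted with the HSP70 list, Hspa4 was higher in hybrid cells, at 233 against 188 FPKM (log2 difference 0.30, limma, adjusted p = 0.013). Sil1, the exchange factor of the ER HSP70, fell from 12.6 ± 0.636 FPKM in EPSCs to 6.20 ± 0.196 FPKM in the hybrid cells (log2 difference -0.91, limma, adjusted p = 0.00019). Bag4 was at 9.73 and 14.8 FPKM (log2 difference -0.56, limma, adjusted p = 0.0018). Bag2, an inhibitor of the ubiquitin ligase CHIP, was higher in NSCs, at 13.9 FPKM against 2.85 in hybrid cells and 2.97 in EPSCs. For EPSCs against ESCs, limma called 6 higher and 0 lower (0 lower also at an unadjusted p under 0.05), among them Hspbp1 (47.8 against 32.1 FPKM) and St13 (299 against 211 FPKM). Of all genes, 33.7% were higher and 27.3% were lower.

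Partners of BAG3 in selective autophagy were examined as the route to which BAG3 delivers its clients. In hybrid cells, 5 of 15 were higher and 1 was lower than in EPSCs, with a median of 0.08 and a background of 22.5% and 21.9%. Synpo, a BAG3-binding actin protein, was at 1.73 ± 0.307 and 0.593 ± 0.0672 FPKM (log2 difference 0.77, limma, adjusted p = 0.0012), and Map1lc3a, an autophagosome protein, was at 28.0 and 19.1 FPKM (limma, adjusted p = 0.011). Against NSCs, 10 were higher and 2 were lower in hybrid cells (background 44.5% and 42.0%), and scaling to a common sum gave 3 and 6, where the background was 30.2% and 57.3%. The receptor Sqstm1 (p62) stood at 281 ± 3.60 FPKM, against 70.9 ± 1.28 FPKM in NSCs (log2 difference 1.97, limma, adjusted p = 1.4e-08). Flnc, a filamin that is a classical BAG3 client, was at 4.32 against 0.134 FPKM, and Wdfy3 was lower in hybrid cells, at 3.92 against 13.5 FPKM. In EPSCs, 10 were higher and 4 were lower than in NSCs (background 45.2% and 41.0%), and scaling to a common sum gave 3 and 7 (background 30.4% and 56.6%). In EPSCs compared with ESCs, 4 were higher and 5 were lower (background 33.7% and 27.3%), with Vcp higher (230 against 131 FPKM) and Optn lower (4.67 against 10.4 FPKM). Quantile normalization gave 2 higher and 7 lower, and scaling to a common sum 3 and 6. Of all genes, these gave 4051 and 3868 of 13239, and 4102 and 4134 of 14064.

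Heat shock factors showed no common direction in the deposited values. Hsf1, named here after its values were seen because it is the main regulator of the group, averaged 24.8 ± 0.152 FPKM (ESCs), 20.9 ± 0.0268 (NSCs), 21.4 ± 0.762 (EPSCs), and 20.7 ± 2.25 (hybrid cells), and in the deposited values was called in none of the 4 comparisons (limma, adjusted p = 0.66 for hybrid cells against EPSCs, 0.85 for hybrid cells against NSCs, 0.72 for EPSCs against NSCs, and 0.051 for EPSCs against ESCs). Its log2 difference between hybrid cells and EPSCs was -0.05. Of the 6 tested genes in the list, 1 was higher and 2 were lower in hybrid cells than in EPSCs (background 22.5% and 21.9%). In each of the other comparisons, 2 were higher and 2 were lower. The background was 44.5% and 42.0% for hybrid cells against NSCs and 45.2% and 41.0% for EPSCs against NSCs. For EPSCs against ESCs, it was 33.7% and 27.3%. Scaling to a common sum gave, against NSCs, 1 higher and 5 lower for hybrid cells (background 30.2% and 57.3%). For EPSCs against NSCs, it gave 1 and 4 (background 30.4% and 56.6%). Hsf1 was among the lower ones, at log2 differences of -0.62 (limma, adjusted p = 0.0003) and -0.57 (limma, adjusted p = 0.00051), whereas the median of all genes was at -0.50 and -0.48. Against ESCs, Hsf1 was called lower in EPSCs after that scaling (log2 difference -0.27, limma, adjusted p = 0.035) and after quantile normalization (-0.24, limma, adjusted p = 0.028). Ier5, a coactivator of HSF1, was at 6.22 ± 1.36 FPKM in hybrid cells, 2.79 ± 0.139 in EPSCs, 12.9 ± 0.127 in NSCs, and 1.17 ± 0.00842 in ESCs. It was higher in hybrid cells than in EPSCs (log2 difference 0.92, limma, adjusted p = 0.0015). Like Bag3 it was lower in EPSCs than in NSCs, but unlike Bag3 it was lower in ESCs than in EPSCs. Hsf2bp, a meiotic binding partner of HSF2, was at 10.7 FPKM in hybrid cells, 17.3 in EPSCs, and 0.0522 in NSCs. Hsf4, which is known from the lens, was at 0.125 in EPSCs against 2.11 in ESCs (log2 difference -1.47, limma, adjusted p = 7.1e-06).

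Other HSF1 targets were higher than in NSCs for 9 of 14 tested genes in both groups, with 3 lower in hybrid cells and 2 in EPSCs. The share of 64.29% higher compares with 44.5% and 45.2% of all genes. They shared genes with the lists above. Dedd2 was at 12.8 FPKM in hybrid cells, 14.9 in EPSCs, and 2.46 in NSCs (hybrid cells against NSCs, log2 difference 2.00, limma, adjusted p = 1.9e-06). Hspa4l, an HSP110 relative, was instead higher in NSCs, at 17.4 FPKM against 2.26 in hybrid cells and 1.96 in EPSCs. Between hybrid cells and EPSCs, 3 were higher and 2 were lower, or 21.43% and 14.29%, near the 22.5% and 21.9% of all genes. Between EPSCs and ESCs, 9 were higher and 1 was lower (background 33.7% and 27.3%), and Serpinh1, the collagen chaperone HSP47, was at 95.8 ± 10.2 FPKM in EPSCs and 27.4 ± 0.0827 in ESCs (log2 difference 1.77, limma, adjusted p = 1e-05). In hybrid cells it averaged 88.1 FPKM, and in NSCs, which were grown on gelatin, 90.8 FPKM. Fibroblasts express Serpinh1 at a high level, and the fibroblast marker sums of all groups are given above. Their part in the difference was not tested.

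Other genes of the HSP70, HSP40, and small heat shock families were divided. In the HSP70 and HSP110 list, 6 of 9 were higher and 3 were lower than in NSCs in both groups, which became 4 and 4 under either other scaling. Of all genes, 44.5% were higher and 42.0% lower in hybrid cells as deposited, and 45.2% and 41.0% in EPSCs. After scaling to a common sum, the background was 30.2% and 57.3%, and 30.4% and 56.6%. Quantile normalization gave 5821 and 5472, and 5918 and 5403, of all 13239 genes. Mitochondrial Hspa9 was at 482 FPKM in EPSCs, 360 in hybrid cells, and 160 in NSCs, and the ER chaperone Hspa5 was at 322 in hybrid cells against 258 in EPSCs (log2 difference 0.32, limma, adjusted p = 0.0025). Hspa2 was lower in EPSCs, at 2.25 FPKM, than in NSCs at 7.50 and ESCs at 4.11. For EPSCs against ESCs, 5 were higher and 2 were lower (background 33.7% and 27.3%). Between hybrid cells and EPSCs, the counts were 2 and 1 (background 22.5% and 21.9%). Of 13 J-domain genes, 6 were higher and 7 were lower than in NSCs in both groups, against 4 and 8 in hybrid cells and 3 and 8 in EPSCs after scaling to a common sum. The deposited shares of 46.15% and 53.85% compare with 44.5% and 42.0% of all genes for hybrid cells and 45.2% and 41.0% for EPSCs. The scaled background was 30.2% and 57.3%, and 30.4% and 56.6%. Dnajb6 reached 126 FPKM (hybrid cells) and 133 FPKM (EPSCs) against 38.3 in NSCs, and Dnajb4 was at 2.69 and 2.12 against 14.8. Dnajb5 followed the order of Bag3 among ESCs, NSCs, and EPSCs, at 12.4, 19.4, and 4.09 FPKM, and was at 7.05 in hybrid cells (hybrid cells against EPSCs, log2 difference 0.66, limma, adjusted p = 0.0093). Dnajb13 was highest in EPSCs, at 4.29 FPKM against 1.75 in hybrid cells and 0.533 in ESCs. Only 3 further small heat shock genes passed the filter. Hspb6, which BAG3 also binds, was like Cryab higher in NSCs, at 14.3 ± 1.04 FPKM against 0.536 ± 0.0351 in hybrid cells (log2 difference -3.32, limma, adjusted p = 4.1e-08) and 0.773 in EPSCs. Hspb11 was higher in hybrid cells than in EPSCs, at 12.4 against 9.12 FPKM (limma, adjusted p = 0.016). Its level was highest in NSCs, at 23.0 FPKM.

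Chaperones and regulators of the endoplasmic reticulum, which belong to a separate stress response, were included for comparison. In hybrid cells, 6 of 18 were higher and 3 were lower than in EPSCs, with a median of 0.04 and a background of 22.5% and 21.9%. Herpud1, a component of ER-associated degradation, was the only network gene that passed both limma and the rule of the study in this comparison, with 9.65 ± 0.488 FPKM in the hybrid cells against 38.3 ± 3.22 FPKM in the EPSCs (log2 difference -1.88, limma, adjusted p = 3e-05). It was at 7.21 FPKM in NSCs. Against NSCs, the counts were 10 higher and 5 lower in hybrid cells and 8 and 6 in EPSCs, where the background was 44.5% and 42.0%, and 45.2% and 41.0%. After scaling to a common sum, they were 1 and 13, and 2 and 13, with a background of 30.2% and 57.3%, and 30.4% and 56.6%. Ddit3 (CHOP) was at 14.7 FPKM in hybrid cells against 5.42 in NSCs, and Dnajc3 at 8.30 against 18.3. In EPSCs compared with ESCs, 6 were higher and 6 were lower (6 and 8 after quantile normalization), with Xbp1 (12.3 against 28.9 FPKM) and Dnajb9 (9.01 against 16.3 FPKM) lower in EPSCs. The background was 33.7% and 27.3% as deposited, and 4051 and 3868 of all 13239 genes after quantile normalization.

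**Figure D5:**
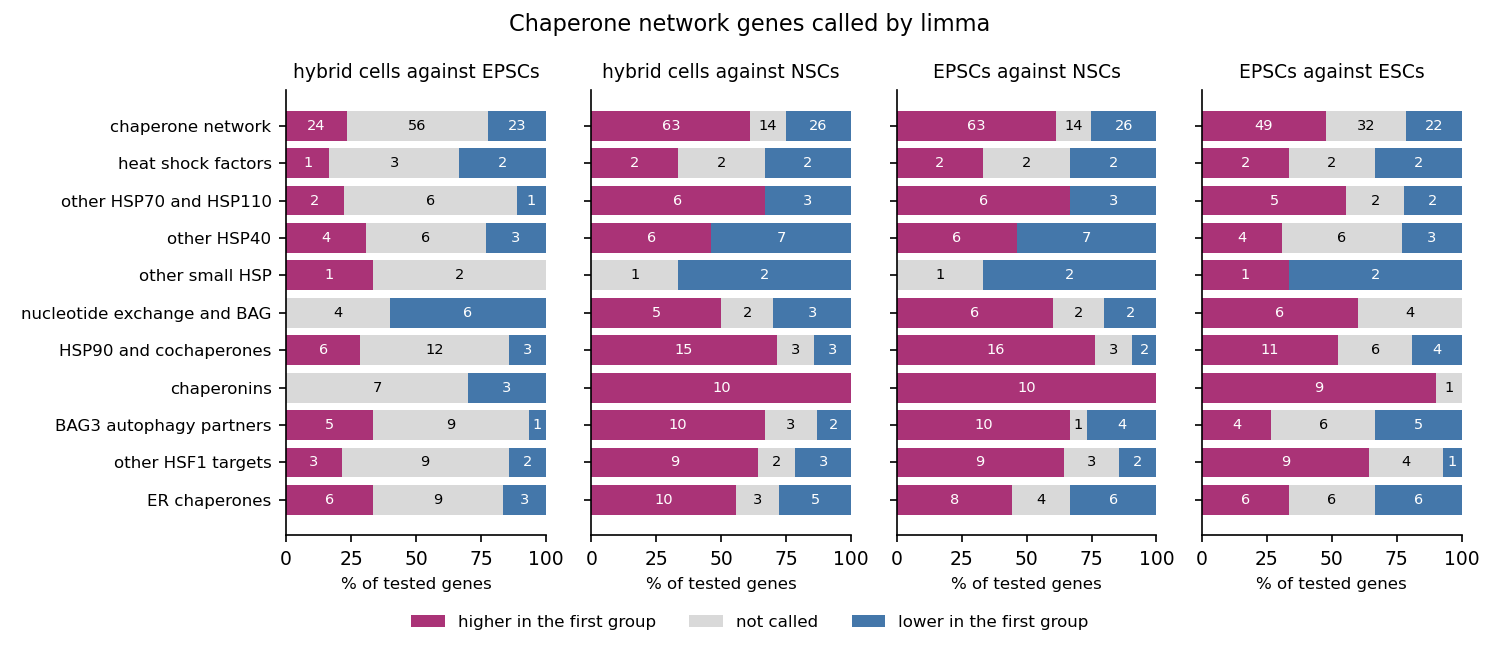
Share of tested genes in each chaperone list that limma called higher (purple) or lower (blue) in the first group, or did not call (grey), for the 4 comparisons, with counts in the bars. For all 103 network genes, 24 were higher and 23 lower in hybrid cells than in EPSCs, and the 10 chaperonins were all higher than in NSCs.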

How the data were processed

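Poly-A RNA of 8 samples (2 each of ESCs, NSCs, EPSCs, and hybrid cells) was sequenced. Per the labels and methods, the authors aligned reads to mm10 with STAR 2.7.9a and computed the deposited FPKM with Cuffnorm of Cufflinks 2.2.1, without pooling replicates. The gene annotation, strand setting, and library normalization are not given in the sources used here. Members and gene lists were chosen with earlier results of these data known.

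Differences are on the scale of log2(FPKM + 1), which understates changes of low genes. Genes outside the set were tested with limma 3.58.1 in R 4.3.3 (4 groups in one fit, eBayes with trend, two-sided, Benjamini-Hochberg adjustment over 13239 genes with a mean of at least 1 FPKM in a group). The p-values measure only the spread between samples of what was read as 1 line per group. The groups compared were taken from the labels. Named genes were the 10 members, the 5 genes most like Bag3, and, per list, each gene called by limma that passed the rule of the study or, failing these, the 2 called genes with the largest difference. Hsf1, Hsp90ab1, Ier2, and Hspa4, and Dnajb5 in hybrid cells, were added after their values were seen. Python 3.11.15, numpy 2.4.6, pandas 2.3.3, and matplotlib 3.10.9 were used. Shared windows come from GENCODE M21 transcripts and promoters from RefSeq. Depth, which the files do not state, was derived from FPKM steps, and counting error is covered by no interval here. The fit, the rules, and the depth derivation were tested on simulated data. Alternatives changed the added constant, the filter, the scaling, the libraries fitted, the use of a replicate block, the variance trend, and the thresholds of the rule, and left out 1 library at a time.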

Additional observations from a re-analysis of the deposited data

How the results depend on the processing

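Scaling each library to a sum of 1000000 reversed 3 differences of the 10 genes on the log2 scale, Bag3 (-0.03) and Dnajb1 (-0.45) between hybrid cells and NSCs and Dnajb1 (-0.24) between EPSCs and NSCs. It moved the median of all genes to -0.50 and -0.48 in these comparisons and the share of called genes that were higher from 51.5 to 34.5% and from 52.4 to 35.0%. A fit of hybrid cells and EPSCs alone called 31 network genes instead of 47 and 3388 of all genes instead of 5881, with 4 libraries and fewer genes tested. With both thresholds of the rule at 2, it was passed by 2 of the 10 genes between hybrid cells and EPSCs (7.24% of all genes at that level) and by 4 between EPSCs and ESCs (16.2%). Leaving out each library in turn, an alternative added after seeing the data for the rule, gave 0 to 1 of the 10 genes between EPSCs and ESCs, where Bag3 passed without the second EPSC library, and 6 to 7 between EPSCs and NSCs, where Bag3 did not pass without the second NSC or the first EPSC library. Scaling to a common sum and a level set on the mean of both groups, also added after seeing the data, changed these counts by at most 1 gene.

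Leaving out each library in turn gave 39 to 46 network genes called for hybrid cells against EPSCs, 85 to 90 for hybrid cells against NSCs, 84 to 90 for EPSCs against NSCs, and 58 to 76 for EPSCs against ESCs. For the 10 genes, 252 of 320 differences under an alternative moved by less than 1 SD, 65 moved by more, and 3 were the reversals above. A reversal was counted only where the deposited difference exceeded its SD, so sign changes of smaller differences are among the other counts. Hspa1a in hybrid cells against EPSCs, for example, changed sign without the first hybrid cell library. For the genes named from the lists with a limma call, 1546 of 1575 values kept their direction and their call, 29 lost the call, and 0 were reversed. Libraries carry replicate numbers that nothing ties to a shared culture or day, and deviations of equally numbered libraries correlated across genes at 0.28 for hybrid cells and EPSCs and between -0.02 and 0.07 in the other comparisons. With the replicate block, limma called 48, 90, 90, and 74 network genes in the same order. Depth limits Hspb1 in NSCs, at about 10 and 14 fragments, and Hspa1a in NSCs, at about 27 and 24. With 2 samples per group, no group could be examined for a single deviating sample.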
